A study of Homo sapiens with 4 samples.

Results

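The RNAs described here are the snoRNA host genes whose symbols begin with SNHG and a digit, together with MALAT1, NEAT1, GAS5, KCNQ1OT1, OIP5-AS1, MEG3, TUG1 and NORAD. They were chosen by symbol, and 36 of the 58884 genes in the table matched. Both cell lines of the study, B-CPAP and TPC-1, derive from human papillary thyroid cancers and are long established; each was held in flasks under water at 40 °C or at 37 °C. RNA of B-CPAP at 40 °C, B-CPAP at 37 °C, TPC-1 at 40 °C and TPC-1 at 37 °C was sequenced, with 1 library for each of these 4 groups and no other treatment in the labels. The length of exposure is given in 3 ways in the labels, as 15 min, 20 min and 24 h, and it could not be settled here.

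The snoRNA host genes are transcribed into RNAs whose introns carry small nucleolar RNAs, which guide chemical modification of ribosomal and spliceosomal RNA. Once spliced, many of the host RNAs start with a run of pyrimidines, the 5′ terminal oligopyrimidine motif, and many are degraded by nonsense-mediated decay. MALAT1 is held at nuclear speckles, NEAT1 is the scaffold of paraspeckles, and KCNQ1OT1 and MEG3 are imprinted RNAs found mainly in the nucleus. NORAD is cytoplasmic and binds Pumilio proteins, OIP5-AS1 binds the RNA-stabilising protein HuR, and TUG1 is a widely expressed long noncoding RNA. Cell compartments were not separated in this study, so the values below are whole-cell levels.

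Depth, estimated from the steps in the values, was 20704227 to 24466361 reads per library. The members together took 0.16% of TPM (a level scaled by exon length and by the library's total) in B-CPAP at 40 °C and 0.125% at 37 °C, and 0.137% in TPC-1 at 40 °C against 0.109% at 37 °C. Mitochondrially encoded RNAs also took more of TPM at 40 °C, with 23.9% against 22.0% in B-CPAP and 19.9% against 16.8% in TPC-1. The thyroid factor PAX8 was at 98.9 to 111.9 TPM in B-CPAP and at 266.7 to 284.4 TPM in TPC-1. SLC5A5, the iodide transporter of differentiated thyroid cells, was listed at 0 in all 4 libraries, as were the leukocyte markers PTPRC and CD3E. NKX2-1 was at 7.9 TPM (40 °C) against 8.6 TPM (37 °C) in B-CPAP and at 0 in TPC-1. Of 10 markers of other cells, 3 reached a mean of 1 TPM (CALCA, COL1A1 and COL3A1), all of them higher in B-CPAP. In bulk RNA of this kind, fewer cells of a type and less RNA per cell cannot be told apart.

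RefSeq start sites of the host genes are shown first because the pyrimidine run there is the feature by which many of them are known. Windows of 250 bases before to 50 bases after the start were taken from RefSeq (GRCh38.p14) and matched 30 of the 36 members, 25 of them host genes. For each member the first window listed was used, so its start need not be that of the gene as counted. SNHG32 and SNHG29 begin further upstream in GENCODE 29, at bases 31834608 and 16438822, and other starts of a member were not searched. CTTTT was searched within 10 bases before to 20 bases after the start, on the strand that reads as the RNA does. It was present in 5 of the 30 windows (SNHG32, SNHG5, SNHG19, SNHG29 and SNHG16), against 3.63% of 35116 windows of all genes. This search range was chosen after the windows were seen, and the match is a description of the letters only. The 40 bases around the start are given below, with CTTTT in capitals, for SNHG32 (chr6:31834901-31834940, plus strand), SNHG5 (chr6:85678709-85678748, minus strand), SNHG19 (chr16:2155334-2155373, minus strand), SNHG29 (chr17:16438972-16439011, plus strand) and SNHG16 (chr17:76557749-76557788, plus strand).
SNHG32: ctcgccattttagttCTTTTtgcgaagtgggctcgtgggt
SNHG5: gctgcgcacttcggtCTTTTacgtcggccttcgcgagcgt
SNHG19: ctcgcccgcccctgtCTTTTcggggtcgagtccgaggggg
SNHG29: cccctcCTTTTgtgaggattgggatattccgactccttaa
SNHG16: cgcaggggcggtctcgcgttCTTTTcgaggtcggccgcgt

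GAS5 was the member whose window held both arrangements of inverted heat shock factor motifs that were searched, which is why its window is printed. GAANNTTC was found in 2 of the 30 windows (GAS5 and SNHG29), against 6.77% of all windows. TTCNNGAA was found in 3 (GAS5, SNHG20 and SNHG8), against 7.74%. Each of these letter patterns reads the same on both strands. CCAAT or its reverse ATTGG was found in 10 of the 30, against 34.61% of all windows. In the GAS5 window (chr1:173868996-173869295, minus strand) the capitals mark the overlapping GAANNTTC and TTCNNGAA and each CCAAT.
GAS5: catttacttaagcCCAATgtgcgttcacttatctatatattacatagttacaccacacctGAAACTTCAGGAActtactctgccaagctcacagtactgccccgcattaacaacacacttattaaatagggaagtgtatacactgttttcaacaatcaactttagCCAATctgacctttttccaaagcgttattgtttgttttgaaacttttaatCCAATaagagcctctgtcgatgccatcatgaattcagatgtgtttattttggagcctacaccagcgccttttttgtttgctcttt

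Among members with at least 20 estimated reads in every library, MALAT1 and NEAT1 had the largest ratios between temperatures that appeared in both lines. Both were higher at 40 °C, and both lie on chromosome 11 (GENCODE 29, GRCh38). MALAT1 (ENSG00000251562, chr11:65497688-65506516, plus strand) was at 218.7 TPM in B-CPAP at 40 °C and 85.46 TPM at 37 °C, and at 203.1 TPM in TPC-1 at 40 °C and 125.5 TPM at 37 °C. Both 40 °C libraries stood above both 37 °C libraries. The TPM ratio of 40 °C over 37 °C was 2.56 in B-CPAP (95% exact interval 2.48 to 2.64) and 1.62 in TPC-1 (1.57 to 1.67). These intervals rest on estimated reads, cover counting error only and compare 2 libraries, since each group had 1 library.

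NEAT1 (ENSG00000245532, chr11:65422774-65445540, plus strand) was at 26.97 TPM in B-CPAP at 40 °C and 13.56 TPM at 37 °C, and at 16.01 TPM in TPC-1 at 40 °C and 9.26 TPM at 37 °C. Within each line the 40 °C library was the higher one, and across lines the 40 °C and 37 °C libraries again did not overlap. Of all tested genes, 41.6% were higher at 40 °C in both lines. The share whose libraries also did not overlap across lines was not counted, here or for members below, so such a separation is a description only. The ratio was 1.99 in B-CPAP (1.89 to 2.09) and 1.73 in TPC-1 (1.61 to 1.86). MALAT1 and NEAT1 were the members at least 1.5-fold higher on the log2(TPM + 1) scale in both lines, 2 of 31 tested members (6.45%) against 1.48% of all 14912 tested genes and 3.41% of 1730 tested long noncoding genes. A gene was tested where its mean over the 4 libraries was at least 1 TPM.

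Reads were assigned to KCNQ1OT1 and to MEG3 in a single line each. KCNQ1OT1 (ENSG00000269821, chr11:2608328-2699994, minus strand), antisense to KCNQ1, was at 0 in both B-CPAP libraries and at 1.11 TPM in TPC-1 at 40 °C and 0.76 TPM at 37 °C, from 588 and 421 estimated reads. Its ratio between temperatures in TPC-1 was 1.46 (1.29 to 1.66). All 91667 bases of KCNQ1OT1 count as exon, and the library kit does not mark strand. Reads of unspliced KCNQ1 RNA would therefore be assigned to KCNQ1OT1 where they overlap. Their part in these values was not tested. The mean of KCNQ1OT1 lay below the filter, so it entered no fit. Set against a floor of 3 reads per library, B-CPAP was at least 237.3-fold lower at 40 °C and at least 173.1-fold lower at 37 °C. The upper end of the exact 95% interval of the ratio of B-CPAP over TPC-1, a weaker limit, was 0.0052 at 40 °C and 0.00713 at 37 °C. MEG3 (ENSG00000214548, chr14:100779410-100861031, plus strand) showed the opposite distribution, at 5.19 TPM in B-CPAP at 40 °C, 3.92 TPM in B-CPAP at 37 °C and 0 in both TPC-1 libraries. B-CPAP was at least 232.0-fold higher at 40 °C and at least 183.7-fold higher at 37 °C against the same floor, while the lower end of the exact 95% interval of that ratio was 188.3 at 40 °C and 149.0 at 37 °C. Within B-CPAP, MEG3 had a ratio of 1.32 between temperatures (1.19 to 1.47).

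**Figure D1:**
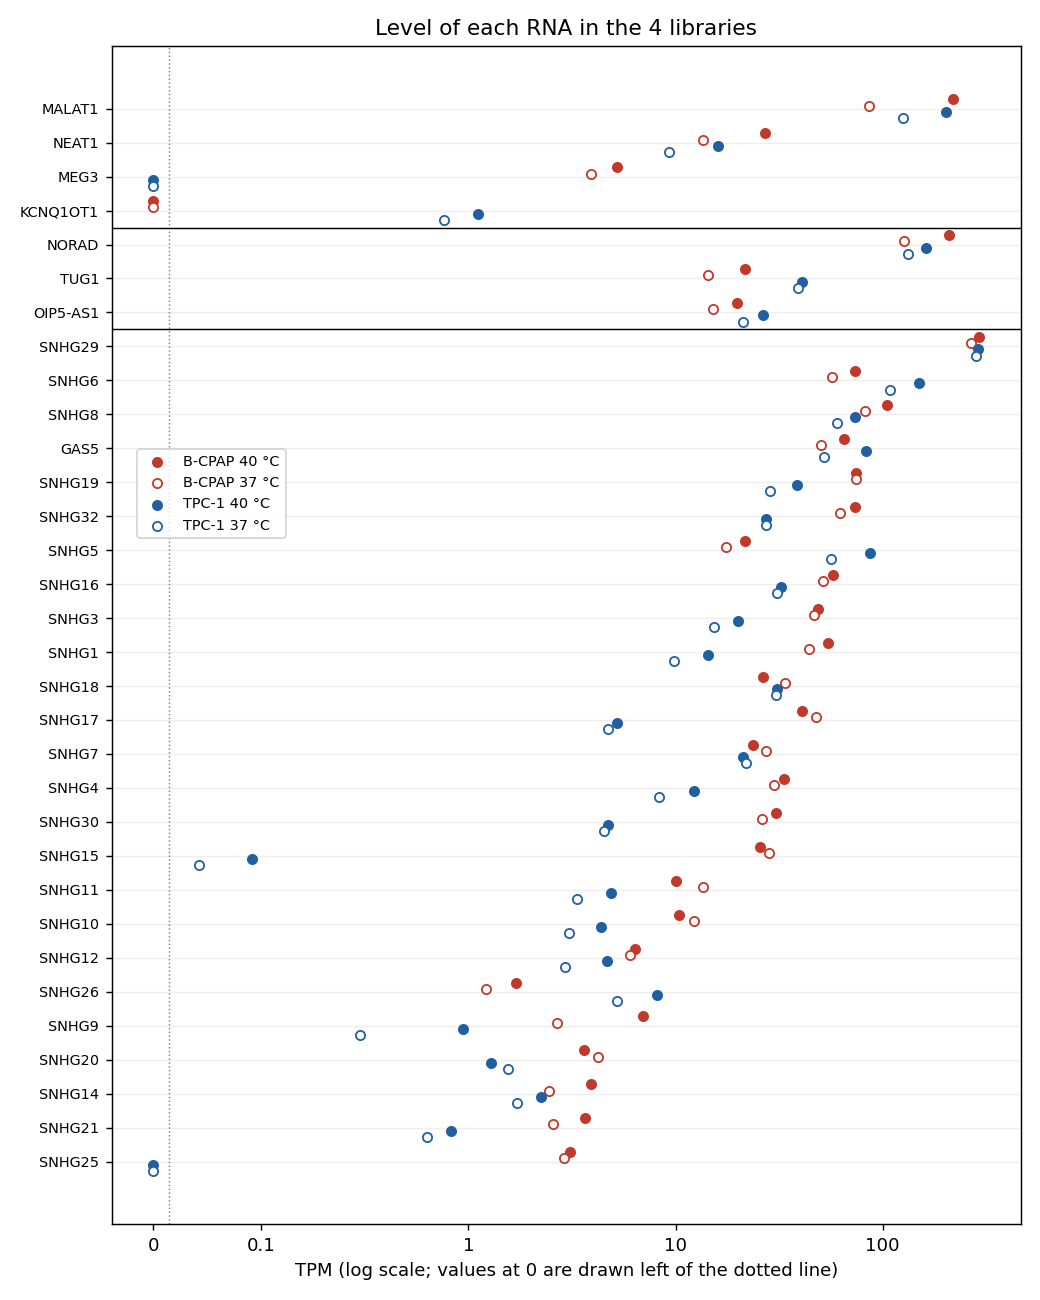
Level of 32 members in the 4 libraries, in TPM on a log axis, with values at 0 left of the dotted line; filled points are 40 °C and open points 37 °C, red B-CPAP and blue TPC-1, 1 library each. MALAT1 and NEAT1 have both filled points to the right of both open ones, MEG3 is at 0 in TPC-1, and KCNQ1OT1 is at 0 in B-CPAP.

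The cytoplasmic and other long noncoding RNAs were higher at 40 °C to different extents. NORAD (ENSG00000260032, chr20:36045622-36050960, minus strand) was at 208.9 TPM in B-CPAP at 40 °C and 127.1 TPM at 37 °C, a ratio of 1.64 (1.59 to 1.7), and at 162.4 TPM (40 °C) against 133.1 TPM (37 °C) in TPC-1, a ratio of 1.22 (1.17 to 1.27). Both 40 °C libraries were above both 37 °C libraries. TUG1 was at 21.6 TPM in B-CPAP at 40 °C and 14.36 TPM at 37 °C, a ratio of 1.5 (1.39 to 1.63), whereas in TPC-1 it was at 40.58 TPM (40 °C) against 38.82 TPM (37 °C), and the interval of the ratio, 0.987 to 1.11, included 1. OIP5-AS1 was at 19.89 TPM in B-CPAP at 40 °C and 15.14 TPM at 37 °C, and at 26.46 TPM (40 °C) against 21.16 TPM (37 °C) in TPC-1. Its ratios were close to each other in size, at 1.31 in B-CPAP (1.22 to 1.41) and 1.25 in TPC-1 (1.17 to 1.34). Reads of OIP5-AS1 and of OIP5 on the opposite strand cannot be told apart where they overlap, since the library kit does not mark strand; 6.3% of its exon bases overlap other genes.

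Among the snoRNA host genes, GAS5 and SNHG5 had the largest differences in TPC-1 on the log2(TPM + 1) scale. GAS5 (ENSG00000234741, chr1:173863900-173868882, minus strand) is named for its accumulation in growth-arrested cells. The RefSeq window printed above lies outside these coordinates. GAS5 was at 65.36 TPM (40 °C) against 50.48 TPM (37 °C) in B-CPAP. In TPC-1 it was at 83.58 TPM (40 °C) against 51.94 TPM (37 °C). The 37 °C libraries of the lines were close together and both 40 °C libraries lay above them, with ratios of 1.29 in B-CPAP (1.2 to 1.39) and 1.61 in TPC-1 (1.49 to 1.73). SNHG5 (chr6:85660950-85678748, minus strand), one of the genes with CTTTT at its start, was at 21.75 TPM (40 °C) against 17.58 TPM (37 °C) in B-CPAP and at 86.55 TPM (40 °C) against 56.39 TPM (37 °C) in TPC-1. Its ratio was 1.24 in B-CPAP (1.07 to 1.43) and 1.53 in TPC-1 (1.41 to 1.67). The distance between the lines was larger than that between temperatures.

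SNHG6, SNHG8, SNHG1 and SNHG4 were also higher at 40 °C in both lines beyond counting error. SNHG6 was at 73.59 TPM in B-CPAP at 40 °C and 56.74 TPM at 37 °C, and at 150.5 TPM (40 °C) against 108.9 TPM (37 °C) in TPC-1, although 36.4% of its exon bases overlap MCMDC2 or a snoRNA gene. SNHG8 was at 105.1 TPM in B-CPAP at 40 °C and 81.97 TPM at 37 °C, and at 73.74 TPM (40 °C) against 60.06 TPM (37 °C) in TPC-1. SNHG1 was at 54.69 TPM (40 °C) against 44.06 TPM (37 °C) in B-CPAP and at 14.42 TPM (40 °C) against 9.82 TPM (37 °C) in TPC-1. For these genes the ratio was between 1.24 and 1.3 in B-CPAP and between 1.23 and 1.47 in TPC-1. SNHG4 was at 33.23 TPM in B-CPAP at 40 °C and 29.72 TPM at 37 °C (ratio 1.12), and at 12.32 TPM (40 °C) against 8.29 TPM (37 °C) in TPC-1 (ratio 1.49). After the adjustment for GC content described below, SNHG6, SNHG1 and SNHG4 were lower at 40 °C in B-CPAP and higher in TPC-1, and SNHG8 was higher in both. SNHG14, the long imprinted host on chromosome 15, was at 3.91 TPM (40 °C) against 2.44 TPM (37 °C) in B-CPAP (ratio 1.61, 1.47 to 1.76) and at 2.23 TPM (40 °C) against 1.72 TPM (37 °C) in TPC-1 (ratio 1.3, 1.14 to 1.47).

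SNHG29, SNHG16, SNHG3, SNHG32 and SNHG30 had no interval above 1 in both lines. SNHG29, the member with the highest level in each library, was at 292.6 TPM in B-CPAP at 40 °C and 267.6 TPM at 37 °C, and at 289.0 TPM (40 °C) against 280.9 TPM (37 °C) in TPC-1. Its ratio was 1.09 in B-CPAP (1.06 to 1.13), and the interval in TPC-1, 0.994 to 1.07, included 1. SNHG16 was at 57.5 TPM (40 °C) against 51.31 TPM (37 °C) in B-CPAP (ratio 1.12) and at 32.28 TPM (40 °C) against 30.74 TPM (37 °C) in TPC-1 (ratio 1.05). SNHG16 thus differed slightly in B-CPAP and within counting error in TPC-1. SNHG3 was at 48.71 TPM in B-CPAP at 40 °C and 46.58 TPM at 37 °C, and SNHG32 at 73.42 TPM (40 °C) against 62.21 TPM (37 °C) in B-CPAP, a ratio of 1.18 (1.07 to 1.3). In TPC-1, SNHG3 was at 20.07 TPM (40 °C) against 15.29 TPM (37 °C), a ratio of 1.31 (1.14 to 1.51), and SNHG32 at 27.39 TPM (40 °C) against 27.27 TPM (37 °C). SNHG30 was at 30.7 TPM (40 °C) against 26.2 TPM (37 °C) in B-CPAP (ratio 1.17, 0.997 to 1.38) and at 4.72 TPM (40 °C) against 4.51 TPM (37 °C) in TPC-1, with both intervals including 1.

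Lower levels at 40 °C were seen in B-CPAP for 4 host genes beyond counting error, which is 12.9% of the tested members against 21.8% of all genes with an interval. SNHG18 was at 26.45 TPM in B-CPAP at 40 °C and 33.59 TPM at 37 °C, a ratio of 0.787 (0.685 to 0.904), and at 30.88 TPM (40 °C) against 30.51 TPM (37 °C) in TPC-1. SNHG17 was at 40.72 TPM (40 °C) against 47.79 TPM (37 °C) in B-CPAP, a ratio of 0.852 (0.789 to 0.92), and at 5.24 TPM (40 °C) against 4.73 TPM (37 °C) in TPC-1. SNHG7 was at 23.65 TPM (40 °C) against 27.45 TPM (37 °C) in B-CPAP (ratio 0.862, 0.78 to 0.952) and at 21.07 TPM (40 °C) against 21.81 TPM (37 °C) in TPC-1, with 31.4% of its exon bases overlapping other genes, DIPK1B among them. After the adjustment for GC content, SNHG7 turned direction, at a log2 difference of 0.05 in B-CPAP and 0.09 in TPC-1, while in B-CPAP SNHG18 (-0.46), SNHG17 (-0.13) and SNHG11 (-0.25) kept theirs. SNHG18, SNHG17 and SNHG7 had no interval clear of 1 in TPC-1. SNHG11 was lower in B-CPAP at 40 °C, at 10.01 TPM against 13.58 TPM (ratio 0.737, 0.612 to 0.887), and higher in TPC-1, at 4.86 TPM against 3.35 TPM (ratio 1.45, 1.02 to 2.08). It was the 1 member with an interval below 1 in B-CPAP and above 1 in TPC-1, a pattern seen in 0.436% of all tested genes.

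The remaining tested host genes rested on fewer reads or had intervals that included 1 in at least 1 line. SNHG12 was at 6.4 TPM (40 °C) against 6.03 TPM (37 °C) in B-CPAP and at 4.67 TPM (40 °C) against 2.91 TPM (37 °C) in TPC-1 (ratio 1.61, 1.19 to 2.18), and SNHG26 was at 1.69 TPM (40 °C) against 1.22 TPM (37 °C) in B-CPAP and at 8.17 TPM (40 °C) against 5.22 TPM (37 °C) in TPC-1 (ratio 1.56, 1.17 to 2.09). SNHG9 was at 7.0 TPM in B-CPAP at 40 °C and 2.68 TPM at 37 °C, from 27 and 11 reads, a ratio of 2.62 (1.26 to 5.85), and at 3 reads and 1 read in TPC-1. SNHG10 was at 10.36 TPM (40 °C) against 12.33 TPM (37 °C) in B-CPAP and at 4.36 TPM (40 °C) against 3.06 TPM (37 °C) in TPC-1, while SNHG19 was at 73.98 TPM (40 °C) against 74.45 TPM (37 °C) in B-CPAP and at 38.47 TPM (40 °C) against 28.52 TPM (37 °C) in TPC-1. None of these 4 intervals excluded 1. The remaining 3 were low in both lines. SNHG20 was at 3.62 TPM (40 °C) against 4.21 TPM (37 °C) in B-CPAP and at 1.28 TPM (40 °C) against 1.55 TPM (37 °C) in TPC-1. SNHG21, with 72.9% of its exon bases shared with other genes, was at 3.67 TPM (40 °C) against 2.55 TPM (37 °C) in B-CPAP and at 0.82 TPM (40 °C) against 0.63 TPM (37 °C) in TPC-1. SNHG25 was at 3.09 TPM (40 °C) against 2.89 TPM (37 °C) in B-CPAP, from 6 reads each, and at 0 in TPC-1. Exon bases shared with other genes also made up 48.6% of SNHG25, 33.4% of SNHG16, 29.1% of SNHG32, 23.0% of SNHG9 and 20.1% of SNHG10. Tested members for which no overlap is given had a smaller one or none.

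Of the 5 members below the filter, SNHG27 and SNHG28 were at 0 in all 4 libraries. SNHG22 and SNHG31 had at most 9 reads in any library. KCNQ1OT1 is described above.

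**Figure D2:**
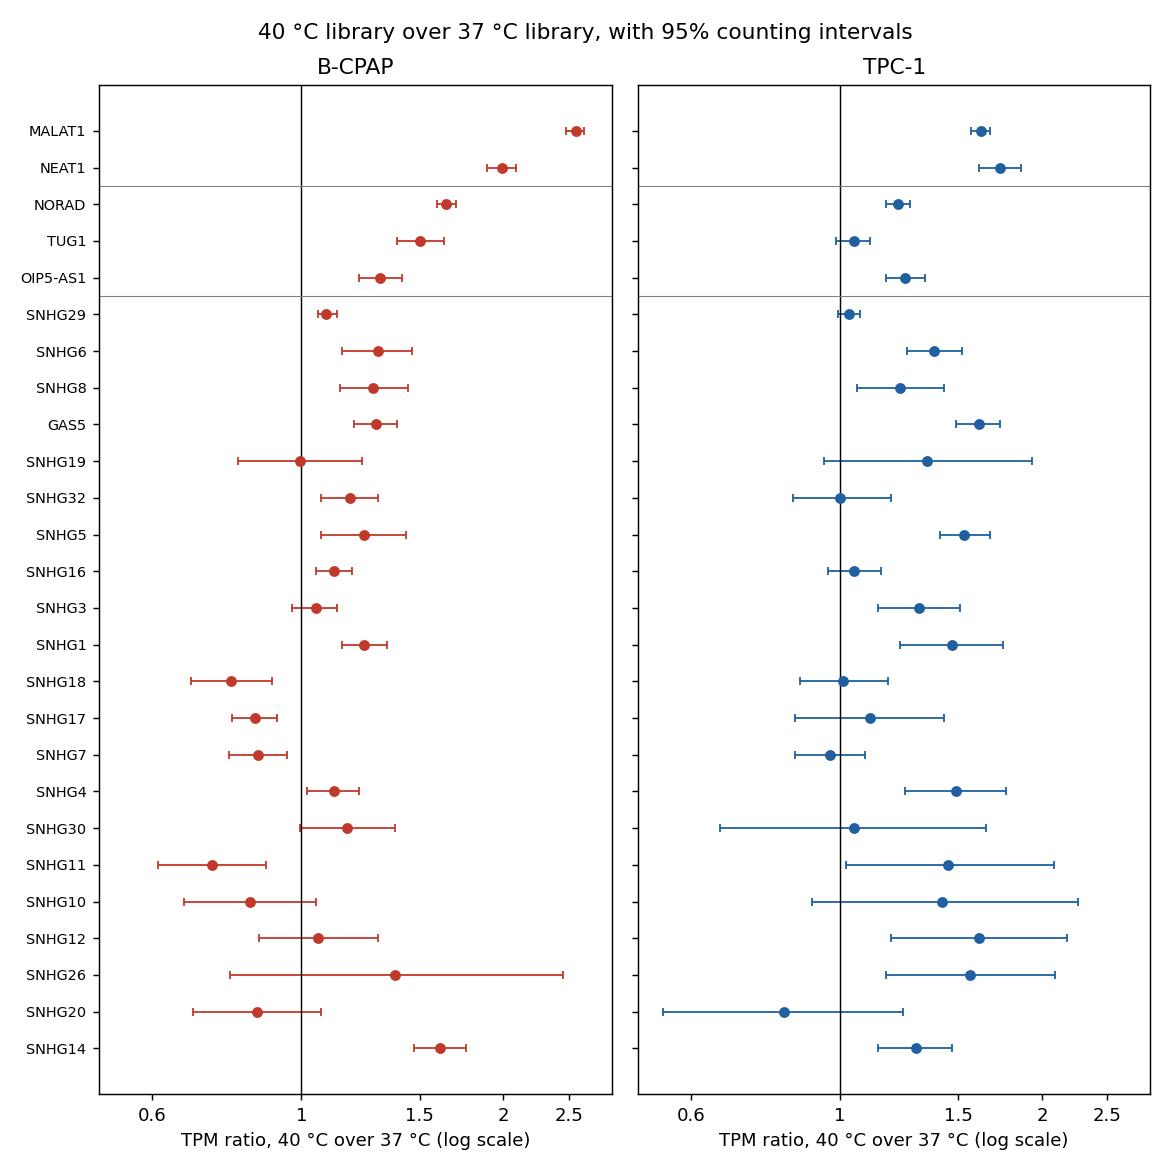
TPM ratio of 40 °C over 37 °C on a log axis for the 26 members with at least 20 estimated reads in every library, with exact 95% counting intervals; red is B-CPAP, blue TPC-1, and the line at 1 marks no difference. MALAT1 reaches 2.56 in B-CPAP and 1.62 in TPC-1, and SNHG11 lies on opposite sides of 1 in the lines.

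Counted over the group, 23 of 31 tested members were higher at 40 °C in B-CPAP, against 58.2% of all tested genes, and 27 of 31 in TPC-1, against 54.3%. Higher in both lines were 21 members (67.7%), against 41.6% of all tested genes. At least 1.5-fold higher were 4 members in B-CPAP (MALAT1, NEAT1, NORAD and SNHG9), which is 12.9% against 12.6% of all tested genes and 14.3% of tested long noncoding genes, so that share was near the background. In TPC-1 the 4 were MALAT1, NEAT1, GAS5 and SNHG5, again 12.9%, against 5.4% of all tested genes but 15.8% of tested long noncoding genes. No member was 1.5-fold lower in either line, against 2.97% of all tested genes in B-CPAP and 2.49% in TPC-1. The median log2 difference of the members was 0.24 in B-CPAP, where that of all tested genes was 0.09, and 0.29 in TPC-1, where it was 0.03. For the 25 tested host genes alone it was 0.16 in B-CPAP and 0.29 in TPC-1. Centring each library on its median moved the median of all genes by -0.18 in B-CPAP and -0.09 in TPC-1, after which 17 members in B-CPAP (54.8%, against 42.0% of all tested genes) and 20 in TPC-1 (64.5%, against 39.4%) were higher at 40 °C. The 4 members of TPC-1 became 2 under that centring and 7 at a pseudocount of 0.1.

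A counting interval above 1 was seen for 17 members in B-CPAP (54.8%, against 36.4% of all genes with an interval) and for 15 in TPC-1 (48.4%, against 21.5%). It lay above 1 in both lines for 11 members (35.5%, against 16.2% of all tested genes). These were MALAT1, NEAT1, NORAD, OIP5-AS1, GAS5, SNHG1, SNHG4, SNHG5, SNHG6, SNHG8 and SNHG14. Such a count also depends on the number of reads a gene has.

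Over both lines, limma with the line as a block called no member and none of the 14912 genes at a Benjamini-Hochberg adjusted p of 0.05 (0.0%), with a smallest adjusted p of 0.0871. At an unadjusted p under 0.05 there were 2905 genes, of which 1772 (11.9%) were higher at 40 °C, and 10 members (32.3%), all of them higher. MALAT1 had a log2 fold change of 1.02 (SE 0.16, limma adjusted p = 0.218) and NEAT1 one of 0.84 (SE 0.13, limma adjusted p = 0.218). The other 8 were NORAD (0.5), GAS5 (0.52), SNHG9 (0.85), SNHG5 (0.45), SNHG6 (0.42), SNHG1 (0.41), OIP5-AS1 (0.34) and SNHG8 (0.32), with limma adjusted p from 0.218 to 0.236. Each had a higher 40 °C library in both lines, which adds nothing to these p-values, since they rest on the same values. With 1 residual degree of freedom, a gene's own spread in this fit is the disagreement of the lines on its difference. Limma draws that spread toward the one shared by tested genes of like level. The SE and p-values therefore do not measure the gene's own spread alone. When only genes with a mean of at least 5 TPM were fitted, 867 of 10112 genes (8.57%) and 6 of 24 members (25%) were called, namely MALAT1 (limma adjusted p = 0.00081), NEAT1 (0.0133), NORAD (0.0177), GAS5 (0.0199), SNHG6 (0.0231) and SNHG5 (0.0422).

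GC content moved with the difference between temperatures, so each member's value was set beside that of protein-coding genes of like GC content. The difference was lower at a higher GC content of the exons, with a Spearman correlation of -0.81 in B-CPAP and -0.59 in TPC-1 over 11819 protein-coding genes, of -0.31 and -0.12 over 1730 long noncoding genes, and of -0.57 and -0.4 over the 31 members. The correlation was smaller among long noncoding genes, while the curve used for the adjustment comes from protein-coding genes. Genes of 1 library pair share its depth and its base composition, so these values describe the libraries. The median GC content of the members was 46.7%, against 48.3% for all tested genes. After each line's curve on GC content was subtracted, the members' median log2 difference was -0.0033 in B-CPAP, with 15 of 31 higher at 40 °C, and 0.18 in TPC-1, with 26 of 31 higher, among them MEG3 and SNHG25, which were at 0 in both TPC-1 libraries. Over all tested genes with a known GC content, 7253 of 14893 were then higher in B-CPAP and 7643 in TPC-1. Of the 1730 long noncoding genes, 830 were higher in B-CPAP and 1007 in TPC-1. Of the 11 members with an interval above 1 in both lines, 5 were still higher at 40 °C in B-CPAP and 6 were lower, and all 11 were higher in TPC-1. MALAT1, at a GC content of 40.6%, had a log2 difference of 0.91 left in B-CPAP and 0.53 in TPC-1, and NEAT1, at 44.1%, one of 0.65 in B-CPAP and 0.63 in TPC-1. NORAD was left at 0.31 in B-CPAP and 0.15 in TPC-1, SNHG8 at 0.2 in B-CPAP and 0.25 in TPC-1, and SNHG14 at 0.23 in B-CPAP and 0.15 in TPC-1. The 6 that turned direction in B-CPAP were OIP5-AS1 (-0.08), GAS5 (-0.003), SNHG1 (-0.07), SNHG4 (-0.17), SNHG5 (-0.12) and SNHG6 (-0.13). In TPC-1 these were left at 0.14 for OIP5-AS1, 0.55 for GAS5, 0.38 for SNHG1, 0.41 for SNHG4, 0.46 for SNHG5 and 0.28 for SNHG6. Whether GC content took part in the differences was not tested beyond this adjustment.

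**Figure D3:**
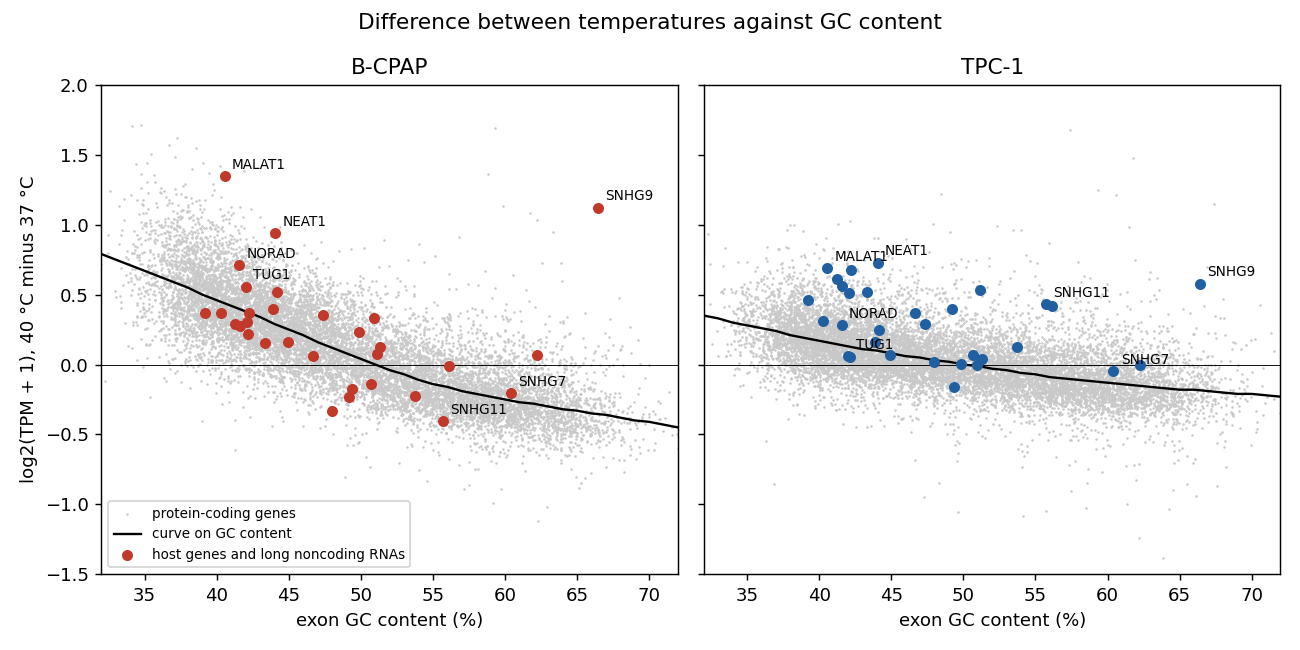
Difference between temperatures, log2(TPM + 1) at 40 °C minus 37 °C, against exon GC content in percent, for tested members (large points) and protein-coding genes (grey) of B-CPAP (left) and TPC-1 (right); the curve was fitted to the protein-coding genes, and genes beyond the axes are not drawn. MALAT1 and NEAT1 lie above the curve in both lines, by 0.91 and 0.65 in B-CPAP.

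Most host genes were higher in B-CPAP than in TPC-1. With temperature as a block, limma called 24 of the 31 tested members at an adjusted p of 0.05, 19 higher in B-CPAP (61.3%, against 29.9% of all tested genes) and 5 lower (16.1%, against 32.8%). Among the host genes, 17 of 25 were higher in B-CPAP and 3 lower. At least 2-fold and called were 15 members higher in B-CPAP (48.4%, against 15.7% of all tested genes) and 3 lower (9.68%, against 17.2%). The median log2 fold change was 0.77 for the members and 1.14 for the host genes, and -0.05 for all tested genes. With MEG3 and SNHG25, at 0 in TPC-1, set against the floor of 3 reads, it was 0.71 for the members and 1.02 for the host genes. With 1 residual degree of freedom these p-values set the lines apart against the spread of their difference between temperatures. Limma draws that spread, too, toward the one shared by tested genes of like level. The labels do not say that the libraries came from separate cultures, and each line stands for itself alone. With any 1 of the 4 libraries left out, and no block, 8 to 10 of the 31 members were called (25.8 to 32.3%), against 2911 to 5719 of the 14912 genes (19.5 to 38.4%).

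SNHG15 had the largest difference of the tested members on the log2(TPM + 1) scale. It was at 25.59 TPM in B-CPAP at 40 °C and 28.26 TPM at 37 °C, and at 0.09 TPM (40 °C) against 0.05 TPM (37 °C) in TPC-1, from 2 reads and 1 read, with a log2 fold change of 4.7 (limma adjusted p = 6.44e-05). The ratio of B-CPAP over TPC-1 was 269.6 at 40 °C (74.3 to 2231.0) and 623.3 at 37 °C (111.5 to 24649.3). Within 100000 bases of SNHG15, a distance and a set of loci chosen after the values were seen, CCM2 was at 20.6 TPM (40 °C) against 26.5 TPM (37 °C) in B-CPAP and at 21.1 TPM (40 °C) against 20.4 TPM (37 °C) in TPC-1. PURB was at 27.9 TPM (40 °C) against 19.3 TPM (37 °C) in B-CPAP and at 19.3 TPM (40 °C) against 16.9 TPM (37 °C) in TPC-1. NACAD, 93477 bases away, was at 7.65 TPM (40 °C) against 9.11 TPM (37 °C) in B-CPAP and at 0 TPM (40 °C) against 0.0332 TPM (37 °C) in TPC-1. One neighbour thus shared the near absence from TPC-1, and the other two were close between the lines.

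SNHG17, SNHG30, SNHG1, SNHG4 and SNHG3 were also higher in B-CPAP at both temperatures. SNHG17 had a log2 fold change of 2.92 (limma adjusted p = 0.000126), SNHG30 one of 2.39 (0.000178) and SNHG1 one of 1.96 (0.000221). SNHG11, which lies 11225 bases from SNHG17 on chromosome 20, had one of 1.33 (limma adjusted p = 0.00636). Annotated inside SNHG17, SNORA71A was at 8.53 TPM (40 °C) against 19.0 TPM (37 °C) in B-CPAP and at 1.29 TPM (40 °C) against 9.87 TPM (37 °C) in TPC-1. SNORA71B was at 18.4 TPM (40 °C) against 24.1 TPM (37 °C) in B-CPAP and at 3.82 TPM (40 °C) against 4.86 TPM (37 °C) in TPC-1. SNORA71C was at 10.7 TPM (40 °C) against 14.0 TPM (37 °C) in B-CPAP and at 3.88 TPM (40 °C) against 1.23 TPM (37 °C) in TPC-1. All 3 had more TPM in B-CPAP at each temperature. Reads were few, at 8 (40 °C) and 19 (37 °C) in B-CPAP and 1 and 8 in TPC-1 for SNORA71A. SNORA71B had 35 and 49 in B-CPAP and 6 and 8 in TPC-1, and SNORA71C 10 and 14 in B-CPAP and 3 and 1 in TPC-1. These snoRNAs also belong to 1 multi-copy family, so the authors' counting could split reads among them, and their values are uncertain. The other called host genes higher in B-CPAP were SNHG25 (2.0, a value that depends on the pseudocount, from 6 reads in each B-CPAP library against 0), SNHG9 (1.77), SNHG4 (1.54), SNHG10 (1.4), SNHG3 (1.39), SNHG32 (1.28), SNHG21 (1.24), SNHG19 (1.14), SNHG20 (1.02), SNHG16 (0.77), SNHG12 (0.62) and SNHG8 (0.47), each given as log2 fold change. For SNHG25 the lower end of the exact 95% interval of the ratio of B-CPAP over TPC-1 was 0.972 at 40 °C and 0.954 at 37 °C, so that counting error included no difference. MEG3 (2.46, limma adjusted p = 0.000906) and NEAT1 (0.61, 0.0113) were the called long noncoding RNAs higher in B-CPAP.

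In the other direction, SNHG5 (log2 fold change -1.79, limma adjusted p = 0.000309), SNHG26 (-1.63, 0.00165), TUG1 (-1.13, 0.0025), SNHG6 (-0.97, 0.000591) and OIP5-AS1 (-0.43, 0.0244) were lower in B-CPAP than in TPC-1. For each of these, both B-CPAP libraries stood below both TPC-1 libraries, which adds nothing to the calls, since they rest on the same values. OIP5-AS1 was no longer called under median centring (limma adjusted p = 0.0738), quantile normalization (0.054) or without the intensity trend (0.0504), nor was SNHG12 without the filter on low values (0.117), at a pseudocount of 0.1 (0.0512) or without the trend (0.0514). Newly called were SNHG14 under median centring (limma adjusted p = 0.0369) and SNHG7 under median centring (0.0376) and after GC adjustment (0.0434). The 7 tested members that were not called had limma adjusted p from 0.103 to 0.802, namely SNHG14, SNHG7, GAS5, MALAT1, NORAD, SNHG29 and SNHG18. Among them SNHG29 and SNHG18 had log2 fold changes of -0.03 and -0.04, and MALAT1 one of -0.22, with its B-CPAP and TPC-1 libraries overlapping.

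**Figure D4:**
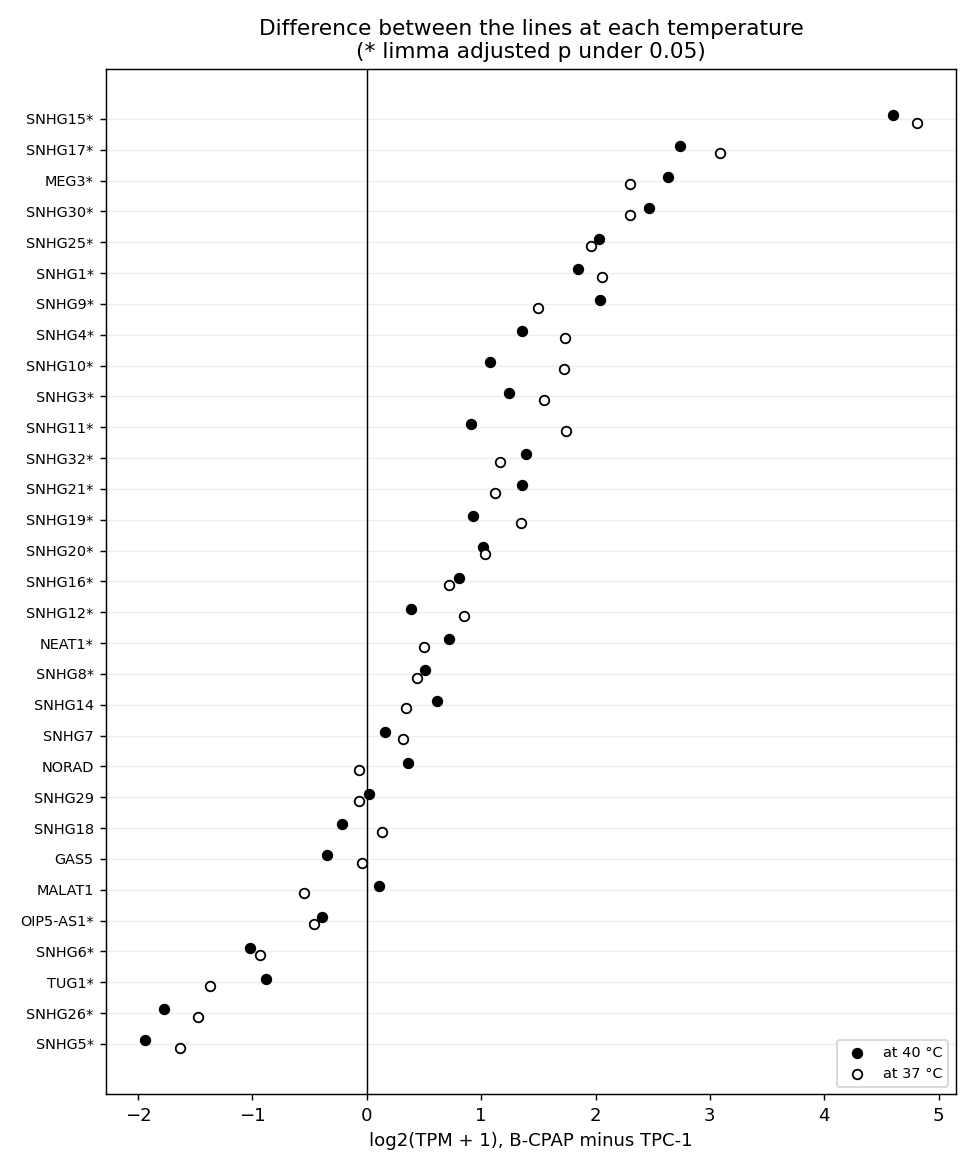
Difference between the lines, log2(TPM + 1) in B-CPAP minus TPC-1, for each of the 31 tested members, with filled points at 40 °C and open points at 37 °C, 1 pair of libraries each; a star marks a limma adjusted p under 0.05. SNHG15 is highest at both temperatures (4.6 at 40 °C, 4.81 at 37 °C) and SNHG5 lowest (-1.94 and -1.63).

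Few reads were assigned to the snoRNAs themselves, which carry no poly(A) tail. Of 139 snoRNA genes annotated inside 27 of the host genes, 84 of them inside SNHG14, 110 had no read in any library and 11 had at least 10 reads over the 4 libraries. Of the 139, 49 overlap an exon of their host and all 49 had no read, whereas of the 90 that overlap none, 61 had no read. How the authors' counting treated reads shared by a snoRNA and an exon of its host is not given in the sources used here, and its part in these zeros was not tested. For GAS5 the same search found 0 snoRNA genes annotated inside it, so its snoRNAs are not among the 139. The one with most reads after SNORA71B was SNORD104, inside SNHG25, a box C/D snoRNA printed here because its level and that of its host could be compared. SNORD104 was at 73.5 TPM in B-CPAP at 40 °C and 55.5 TPM at 37 °C, from 36 and 29 reads, and at 14.8 TPM (40 °C) against 9.45 TPM (37 °C) in TPC-1, from 6 and 4 reads. Its host was at 6 reads in each B-CPAP library and at none in TPC-1. In the sequence (chr17:64146083-64146152, plus strand, GENCODE 29 on GRCh38) the capitals mark TGATGA, the letters of box C, and CTGA, those of box D.
SNORD104: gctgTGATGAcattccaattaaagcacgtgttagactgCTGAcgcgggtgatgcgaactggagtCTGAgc
The others with at least 10 reads were SNORA60 in SNHG11, SNORD99 in SNHG12, SNORA73B in SNHG3, SNORA71A, SNORA71B and SNORA71C in SNHG17, and SNORD116-1, SNORD116-2, SNORD116-6 and SNORD116-7 in SNHG14. SNORA73B was at 10.5 TPM (40 °C) against 15.8 TPM (37 °C) in B-CPAP, from 15 and 24 reads. In TPC-1 it was at 5.09 TPM (40 °C) against 4.86 TPM (37 °C), from 6 reads each. SNORD99 was at 15.5 TPM (40 °C) against 12.7 TPM (37 °C) in B-CPAP, from 8 and 7 reads. In TPC-1 it was at 4.68 TPM (40 °C) against 4.47 TPM (37 °C), from 2 reads each.

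Proteins that work with these RNAs were described by lists, in each of which limma called 0 genes between temperatures. Of 19 proteins that build snoRNPs, the particles of snoRNA and protein, 9 were higher at 40 °C in B-CPAP and 12 in TPC-1, with median log2 differences of -0.01 in B-CPAP and 0.04 in TPC-1. These shares, 47.4% and 63.2%, stood against 58.2% of all tested genes in B-CPAP and 54.3% in TPC-1, and after GC adjustment the medians were 0.03 in B-CPAP and -0.01 in TPC-1. NOP58, a core protein of box C/D particles, was at 47.4 TPM in B-CPAP at 40 °C and 29.3 TPM at 37 °C, and at 14.8 TPM (40 °C) against 11.1 TPM (37 °C) in TPC-1. RPAP3, a factor of their assembly, was at 17.8 TPM (40 °C) against 8.92 TPM (37 °C) in B-CPAP and at 9.71 TPM (40 °C) against 7.08 TPM (37 °C) in TPC-1. RUVBL2 was lower at 40 °C, at 299.5 TPM (40 °C) against 381.8 TPM (37 °C) in B-CPAP and at 213.4 TPM (40 °C) against 248.6 TPM (37 °C) in TPC-1, as was PIH1D1, at 38.5 TPM (40 °C) against 43.4 TPM (37 °C) in B-CPAP and at 78.8 TPM (40 °C) against 95.1 TPM (37 °C) in TPC-1. Between the lines, 14 of the 19 were called higher in B-CPAP and 1 lower, against 29.9% and 32.8% of all tested genes.

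Of 17 nonsense-mediated decay factors, 11 were higher at 40 °C in B-CPAP and 7 in TPC-1 (medians 0.14 and -0.03). That is 64.7% in B-CPAP and 41.2% in TPC-1, against 58.2% and 54.3% of all tested genes, and the GC-adjusted medians were -0.02 in B-CPAP and 0.02 in TPC-1. The central helicase UPF1 was at 80.8 TPM in B-CPAP at 40 °C and 97.3 TPM at 37 °C, and at 53.7 TPM (40 °C) against 57.8 TPM (37 °C) in TPC-1. The kinase SMG1 was at 11.4 TPM (40 °C) against 6.45 TPM (37 °C) in B-CPAP and at 16.3 TPM (40 °C) against 13.2 TPM (37 °C) in TPC-1. Of the 4 factors named, SMG1 and UPF2 were higher at 40 °C, and UPF1 and DHX34 lower. UPF2 was at 19.0 TPM (40 °C) against 9.78 TPM (37 °C) in B-CPAP and at 16.0 TPM (40 °C) against 14.5 TPM (37 °C) in TPC-1, and DHX34 at 33.4 TPM (40 °C) against 48.2 TPM (37 °C) in B-CPAP and at 13.8 TPM (40 °C) against 16.3 TPM (37 °C) in TPC-1.

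Of 17 tested paraspeckle proteins, the partners of NEAT1, 11 were higher at 40 °C in each line, with medians of 0.25 in B-CPAP and 0.03 in TPC-1. This share, 64.7%, stood against 58.2% of all tested genes in B-CPAP and 54.3% in TPC-1, and the GC-adjusted medians were -0.14 in B-CPAP and -0.03 in TPC-1. TARDBP was at 59.4 TPM in B-CPAP at 40 °C and 39.5 TPM at 37 °C, and at 46.1 TPM (40 °C) against 40.4 TPM (37 °C) in TPC-1. HNRNPH3 was at 58.9 TPM (40 °C) against 39.5 TPM (37 °C) in B-CPAP and at 88.9 TPM (40 °C) against 82.9 TPM (37 °C) in TPC-1. Both were higher at 40 °C in each line, whereas RBM14 and SMARCA4 were lower. RBM14 was at 78.8 TPM (40 °C) against 101.5 TPM (37 °C) in B-CPAP and at 50.6 TPM (40 °C) against 55.8 TPM (37 °C) in TPC-1, and SMARCA4 at 74.7 TPM (40 °C) against 83.3 TPM (37 °C) in B-CPAP and at 71.5 TPM (40 °C) against 75.8 TPM (37 °C) in TPC-1. On the log2(TPM + 1) scale, 0 of the 17 were 1.5-fold apart in either line.

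The nuclear RNA exosome and its adaptors, which degrade nuclear RNA, had medians of 0.41 in B-CPAP and 0.17 in TPC-1 over 22 genes. Of these, 18 in B-CPAP (81.8%, against 58.2% of all tested genes) and 17 in TPC-1 (77.3%, against 54.3%) were higher at 40 °C. After the adjustment for GC content these medians were -0.01 in B-CPAP and 0.0 in TPC-1, and the median GC content of the list was 41.1%. EXOSC3 was at 44.4 TPM in B-CPAP at 40 °C and 33.2 TPM at 37 °C, and at 22.7 TPM (40 °C) against 14.9 TPM (37 °C) in TPC-1. The poly(A) polymerase TENT4B was at 6.34 TPM (40 °C) against 3.69 TPM (37 °C) in B-CPAP and at 11.6 TPM (40 °C) against 8.75 TPM (37 °C) in TPC-1. EXOSC3 and TENT4B were higher at 40 °C in both lines, and EXOSC4 was lower in both. EXOSC4 was at 64.9 TPM (40 °C) against 89.0 TPM (37 °C) in B-CPAP and at 37.0 TPM (40 °C) against 42.5 TPM (37 °C) in TPC-1, and EXOSC5 at 68.0 TPM (40 °C) against 93.1 TPM (37 °C) in B-CPAP and at 46.7 TPM (40 °C) against 42.1 TPM (37 °C) in TPC-1.

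Of 5 proteins bound by NORAD or OIP5-AS1, 4 were higher at 40 °C in each line (80.0%). Of all tested genes, 58.2% were higher in B-CPAP and 54.3% in TPC-1. The GC-adjusted medians of these proteins were 0.15 in B-CPAP and 0.04 in TPC-1. PUM2 was at 25.7 TPM in B-CPAP at 40 °C and 16.6 TPM at 37 °C, and at 43.5 TPM (40 °C) against 36.6 TPM (37 °C) in TPC-1. ELAVL1, the gene of HuR, was at 95.8 TPM (40 °C) against 96.3 TPM (37 °C) in B-CPAP and at 84.2 TPM (40 °C) against 90.1 TPM (37 °C) in TPC-1. RBMX was at 166.0 TPM (40 °C) against 154.4 TPM (37 °C) in B-CPAP and at 252.1 TPM (40 °C) against 242.9 TPM (37 °C) in TPC-1. PUM2 and RBMX were among the 4 of these 5 that limma called lower in B-CPAP than in TPC-1, where NORAD was not called. Of all tested genes, 32.8% were called lower.

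Host genes outside the SNHG family gave a background for the members. Over 48 protein-coding host genes, the median log2 difference was 0.08 in B-CPAP, with 30 higher at 40 °C (62.5%, against 58.2% of all tested genes). In TPC-1 it was 0.01, with 28 higher (58.3%, against 54.3%). After GC adjustment these medians were 0.0 in B-CPAP and -0.02 in TPC-1. TAF1D was at 17.4 TPM in B-CPAP at 40 °C and 10.6 TPM at 37 °C, and at 12.3 TPM (40 °C) against 7.38 TPM (37 °C) in TPC-1, and EIF4A2 at 120.7 TPM (40 °C) against 85.7 TPM (37 °C) in B-CPAP and at 132.1 TPM (40 °C) against 102.2 TPM (37 °C) in TPC-1. The ribosomal protein genes RPS2 and RPL13 were lower, RPS2 at 3759.5 TPM (40 °C) against 4759.4 TPM (37 °C) in B-CPAP and at 5910.0 TPM (40 °C) against 6884.0 TPM (37 °C) in TPC-1, and RPL13 at 477.6 TPM (40 °C) against 623.6 TPM (37 °C) in B-CPAP and at 734.5 TPM (40 °C) against 861.5 TPM (37 °C) in TPC-1. The noncoding hosts outside the family did not share 1 direction. Of ZFAS1, DANCR and EPB41L4A-AS1, ZFAS1 was at 59.7 TPM (40 °C) against 45.8 TPM (37 °C) in B-CPAP and at 41.9 TPM (40 °C) against 35.9 TPM (37 °C) in TPC-1, and DANCR at 61.9 TPM (40 °C) against 70.3 TPM (37 °C) in B-CPAP and at 22.3 TPM (40 °C) against 25.3 TPM (37 °C) in TPC-1. EPB41L4A-AS1 was at 6.41 TPM (40 °C) against 5.49 TPM (37 °C) in B-CPAP and at 5.85 TPM (40 °C) against 5.64 TPM (37 °C) in TPC-1, with both intervals including 1. DANCR (1.43) and ZFAS1 (0.42) were called higher in B-CPAP, with limma adjusted p of 0.000306 and 0.0167. Between the lines, 14 of the 48 protein-coding hosts were called higher in B-CPAP and 23 lower, where 17 and 3 of the 25 tested host members were. Of all tested genes, 29.9% were called higher and 32.8% lower.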

How the data were processed

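Polyadenylated RNA was sequenced in 4 libraries, 1 for each line and temperature; per the labels' protocols the kit was TruSeq RNA Library Prep Kit v2, which does not mark strand. The deposited values are TPM, made by the authors with FastQC, MultiQC, Trimmomatic 0.38, featureCounts 2.0.0 and GRCh38, per the submitters' processing notes; the aligner is not given in the sources used here, nor is the annotation. TPM keeps no depth. TPM times GENCODE 29 exon length, divided by the worth of 1 read, gave estimated reads (90.7 to 92.1% of values up to 20 reads were whole within 0.02), which served for exact Clopper-Pearson 95% intervals. Intervals and floors of 3 reads cover counting error only.

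Values were analysed as log2(TPM + 1), a scale that understates changes of low genes, for the 14912 genes with a mean of at least 1 TPM. Limma 3.58.1 (R 4.3.3) was fitted over all of them two-sided, with a trend on intensity, line or temperature as the block, and p-values adjusted by Benjamini-Hochberg; the blocks come from the design, since each line has both temperatures. The fits were also run on simulated data with the same spread for every gene. These data need not meet that setting, so the simulation does not vouch for the calls. Within a line there was no replicate, so no p-value was given. GC content was adjusted by a lowess curve on protein-coding genes. Every tested member is named, and of each list the 2 tested genes with the largest mean difference each way. Some genes that this rule or the marker lists take are not reported here. The members and lists were chosen with earlier results of these data known. Alternatives were other pseudocounts, filters, scalings, limma settings and gene sets, no block, and leaving out each library.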

Additional observations from a re-analysis of the deposited data

Results flagged for a closer look

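SNHG11 is given here because its libraries went opposite ways in the lines: the TPM ratio of 40 °C over 37 °C was 0.737 in B-CPAP and 1.45 in TPC-1. The estimated reads were 197 and 285 in B-CPAP at 40 °C and 37 °C, and 79 and 57 in TPC-1. The difference between the lines was not tested. A counting interval below 1 in B-CPAP and above 1 in TPC-1 was seen in 65 of the 14912 tested genes (0.436%).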

How the results depend on the processing

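With 1 library a group there is no replicate check within a line, and low members such as SNHG9, SNHG15 and SNHG25 are limited by read number. Median centring moved the median of all genes by -0.18 in B-CPAP and -0.09 in TPC-1, after which 17 (54.8%) and 20 (64.5%) of the 31 members were higher at 40 °C, against 42.0% and 39.4% of all genes.

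In TPC-1, the 4 members at least 1.5-fold higher became 7 at a pseudocount of 0.1 and without mitochondrially encoded genes, 2 at a pseudocount of 5, under median centring and after GC adjustment, and 0 at 2-fold. In B-CPAP the 4 became 2 at 2-fold, and the 0 that were lower became 1 under median centring and 1 under quantile normalization. The members' median was 0.051 under median centring, 0.13 under quantile normalization and -0.0033 after GC adjustment in B-CPAP, and 0.18 after GC adjustment in TPC-1. Between temperatures, limma called 2 genes at a pseudocount of 5, 867 genes and 6 members at a mean of at least 5 TPM, 49 genes and 1 member (MALAT1) under median centring, and 5 genes with protein-coding and long noncoding genes only. The cause of these shifts was not tested.

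Without the replicate block, limma called 0 genes and 0 members between temperatures (53 at an unadjusted p under 0.05) and 7469 genes and 20 members between lines; NEAT1, SNHG8, SNHG12 and OIP5-AS1 were no longer called. With 1 library left out, which leaves no room for the block, the lines differed in 2911 to 5719 genes and 8 to 10 members, and the temperatures in 0. The log2 fold change between temperatures then ran from -0.52 to 1.42 for SNHG5, -0.09 to 0.93 for SNHG6, -0.62 to 1.44 for SNHG1 and -0.17 to 1.87 for SNHG9. Between lines it ran from -0.53 to 0.14 for GAS5, -0.21 to 0.13 for SNHG18, -0.89 to 0.45 for MALAT1, -0.09 to 0.04 for SNHG29 and -0.21 to 0.5 for NORAD. None of these 5 was called between lines in the fit over all libraries. SNHG18 was at 0.09 under median centring and 0.04 without mitochondrially encoded genes, and SNHG29 at 0.1, 0.05 (quantile) and 0.06.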
